A study of Mus musculus with 2 samples.

Results

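The annexins are a family of calcium-dependent, membrane-binding proteins. The 10 mouse annexin genes Anxa1 to Anxa9 and Anxa11 were followed on a pair of arrays, of 18430 named genes that had a probe. They were chosen by name, with the difference between Menin KO and Menin WT cells already known, so that difference is given here as a description. They were read by 12 probes in 21 spots of each array, and all 10 genes were well above background on both arrays. The Menin KO group was 1 sample of primary CD4 T cells from the spleen of female C57BL/6J mice, with the genotype label Menin KO. Menin is the product of Men1 and a cofactor of histone methyltransferase complexes. The Menin WT group was 1 sample of the same kind of cells with the genotype label Menin WT. In both groups naive cells were stimulated with an immobilised anti-TCR-β antibody (3 µg/ml) and with antibody to CD28 (1 µg/ml) for 2 days in IL-2 (2.5 ng/ml). They then spent 3 further days in IL-2. How Men1 was deleted, the age of the mice and whether animals were pooled are not given in the sources used here.

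Annexins share a conserved core that binds negatively charged phospholipids when calcium is present, and they differ in the tail ahead of it. Through that tail several of them hold S100 proteins, and the family takes part in membrane repair, vesicle transport and the organisation of actin beneath the membrane. In T cells annexin A1 is known as a modulator of receptor signalling and, when secreted, as a ligand of formyl peptide receptors. Annexin A5 is the protein used in the laboratory to stain phosphatidylserine on dying cells.

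RefSeq windows of 250 bases ahead of the annotated start site, build GRCm38.p6, were listed for 8 of the 10 genes. Those of Anxa1 and Anxa4 are shown because these genes were at least 2-fold higher in KO, and that of Anxa2 because it alone among the 11 annexin windows held the core that AP-1 and Bach factors recognise. Capitals mark matches, on either strand, to that core (TGANTCA), to a TATA box (TATAAA), to a GC box (GGGCGG) or to the spaced element of the glucocorticoid receptor (ACANNNTGT), and none of the marked matches overlap.
Anxa1, chr19:20390672-20390921, minus strand: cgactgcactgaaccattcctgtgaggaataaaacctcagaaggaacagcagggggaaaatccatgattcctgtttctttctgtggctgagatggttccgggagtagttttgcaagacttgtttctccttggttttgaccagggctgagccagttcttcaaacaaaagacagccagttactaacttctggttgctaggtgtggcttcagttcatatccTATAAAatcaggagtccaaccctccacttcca
Anxa2, chr9:69453433-69453682, plus strand: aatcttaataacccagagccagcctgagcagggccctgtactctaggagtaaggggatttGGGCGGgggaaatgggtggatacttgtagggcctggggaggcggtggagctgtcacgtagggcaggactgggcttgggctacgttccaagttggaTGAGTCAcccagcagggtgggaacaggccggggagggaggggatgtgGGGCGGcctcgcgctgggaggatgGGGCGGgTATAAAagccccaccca
Anxa4, upstream start, chr6:86793585-86793834, minus strand: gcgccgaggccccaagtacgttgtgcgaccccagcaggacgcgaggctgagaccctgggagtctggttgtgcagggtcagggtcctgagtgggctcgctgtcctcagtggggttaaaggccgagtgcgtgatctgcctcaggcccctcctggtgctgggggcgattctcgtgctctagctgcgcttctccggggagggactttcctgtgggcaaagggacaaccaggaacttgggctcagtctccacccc
Anxa4, downstream start, chr6:86775115-86775364, minus strand: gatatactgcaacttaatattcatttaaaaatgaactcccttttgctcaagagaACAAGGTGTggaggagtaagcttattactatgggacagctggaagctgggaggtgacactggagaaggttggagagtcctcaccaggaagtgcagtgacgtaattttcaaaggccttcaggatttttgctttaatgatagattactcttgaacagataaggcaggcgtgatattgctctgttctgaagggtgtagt
The TATA box began 32 bases before the start site in Anxa1 and 17 bases before it in Anxa2. The Anxa2 core TGAGTCA began 95 bases before the start. The ACAAGGTGT of Anxa4 also lay in a window of Anxa9, a gene with a log2 difference of -0.08. GC boxes lay in windows of Anxa7 and Anxa11 too, and these windows are not shown. Among all 32851 listed windows of this length, 6.75% held TGANTCA, 12.4% TATAAA, 32.7% GGGCGG and 5.84% ACANNNTGT. Each match describes these letters only, and no binding was measured.

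With 1 array in each group there was no replicate to test against, and no p-value is given. Each value is a processed signal (scanner intensity) or a log2 difference, KO minus WT, after each array was set to its own 75th percentile. The repeat spots of 146 probes printed several times and read on both arrays gave the log2 difference a technical SD of 0.160, pooled over probes. That SD was 0.0541 for the 110 probes with a signal of 100 or more and 0.314 for the 36 dimmer ones. It covers spot scatter and leaves out mice, cultures, RNA preparation and labelling. Men1 had a signal of 459 in KO and 1081 in WT, and Bach2 604 in KO and 4643 in WT. Whether the Men1 probe lies in the deleted part is not known here. The T cell markers Cd3d (55593 in KO, 62714 in WT), Cd3e (1584 in KO, 1801 in WT) and Cd4 (279 in KO, 443 in WT) were well above background on both arrays.

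The annexins stood mostly on the higher side in KO. Of the 10, 3 were at least 2-fold higher (Anxa1, Anxa3 and Anxa4) and none was at least 2-fold lower, against 10.8% higher and 5.14% lower among the 13510 named genes with a value. The other 7 lay between these limits. The median log2 difference over the 10 annexins was 0.66, and that of all named genes was -0.01. Of the 10 annexins 9 were above 0, as were 6688 of the 13510 named genes. Among the 9, Anxa6 (0.00) and Anxa8 (0.38) fell below 0 under some other processing settings. These shares stand as description, since the genes were chosen with this contrast known. In RNA of a whole culture, a larger share of cells that express a gene and more of its RNA per cell cannot be told apart.

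**Figure D1:**
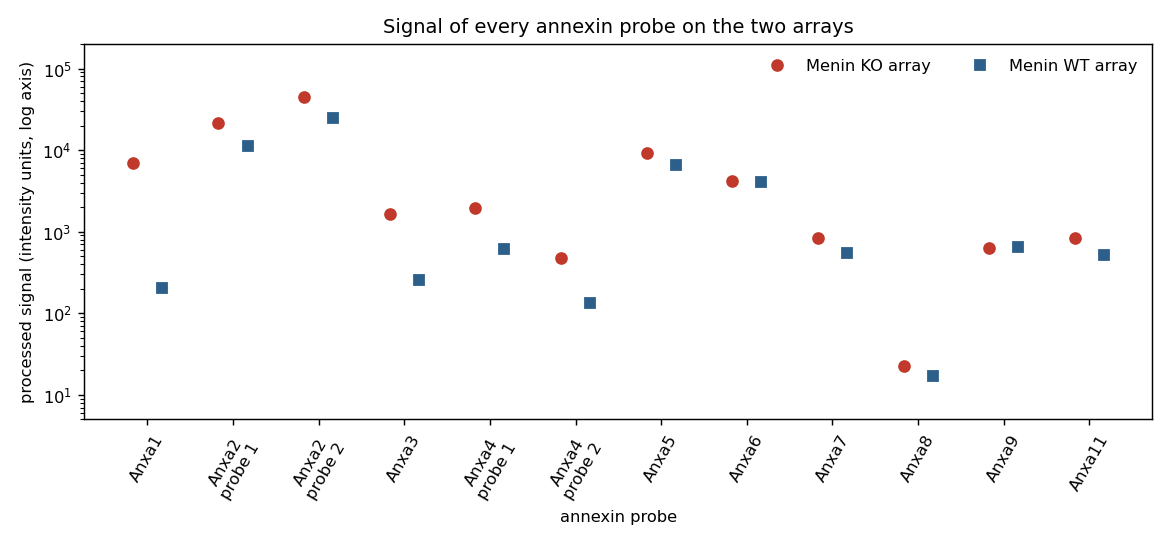
Processed signal of each of the 12 annexin probes on a log axis, 1 point per array, with Menin KO (circles) left of Menin WT (squares). Anxa1 shows the widest gap, 7006 in KO and 206 in WT, while the points for Anxa6 (4126 and 4087) and Anxa9 (626 and 656) lie nearly level.

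Anxa1 encodes annexin A1, a glucocorticoid-induced mediator that damps inflammation. Its probe, designed on NM_010730, had a signal of 7006 in KO and 206 in WT. The KO signal was 33.7-fold higher, a log2 difference of 5.07, and 99.9% of named genes had a smaller difference. Among the 12475 named genes read on both arrays it ranked 9th from the top. The closest genes in log2 difference, the only measure of likeness that 2 arrays allow, were Tmem119 (5.14), Spns2 (5.10), Scin (4.95) and Itgax (4.94). Scin encodes an actin-severing protein that also needs calcium, Spns2 a sphingosine-1-phosphate transporter and Itgax the integrin chain CD11c. Their WT signals were dim, at 25.1 for Tmem119, 22 for Spns2, 67.3 for Scin and 20 for Itgax, whereas the KO signals ran between 623 for Itgax and 2095 for Scin.

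Anxa3, whose product is abundant in neutrophils, was the next most different member. The NM_013470 probe gave 1662 in KO and 253 in WT, a 6.51-fold difference (log2 2.70). Anxa4 encodes annexin A4, a protein of secretory epithelia that forms arrays on membranes. It was read by a pair of NM_013471 probes, with signals of 1951 in KO and 608 in WT on one and 474 in KO and 132 in WT on the other. Both probes placed Anxa4 above the 2-fold limit, at log2 differences of 1.67 and 1.83. The gap of 0.16 between them was larger than the spot scatter of bright probes.

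Anxa2 encodes annexin A2, which joins with S100A10 into a tetramer that links membranes and cell surface plasminogen. One NM_007585 probe gave 45192 in KO and 24457 in WT, and the other 21296 in KO and 11090 in WT. The folds of 1.83 and 1.90 were both just below the 2-fold limit, and the probes were 0.06 apart on the log2 scale. After a normexp background correction Anxa2 passed the limit, with a log2 difference of 1.12. With 6 aberrant local backgrounds of the WT array replaced, Anxa2 was again under the limit.

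Smaller differences on the same side were read for Anxa5, Anxa7 and Anxa11. Anxa11 encodes annexin A11, which has a long tail bound by the calcium sensor ALG-2, and its NM_013469 probe gave 847 in KO and 517 in WT (1.62-fold). Anxa7 encodes synexin, first known for joining chromaffin granules, and had 847 in KO and 549 in WT (1.53-fold). Anxa5, the phosphatidylserine binder, had 9096 in KO and 6585 in WT (1.37-fold). Together with Anxa1 to Anxa4, these made 7 members whose differences were over 8 times the spot SD of their signal class.

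The remaining 3 members differed by less than 2 spot SDs. That SD is of single spots, whereas the Anxa8 difference is a mean over 10 spots and so scatters less. Anxa6 encodes annexin A6, which carries a doubled core, and its signals were 4126 in KO and 4087 in WT, a log2 difference of 0.00 that became -0.08 when arrays were set to their medians. Anxa9 had 626 in KO and 656 in WT, a log2 difference of -0.08 that turned to 0.02 after loess on level. Annexin A9 is an unusual member whose core has lost residues that hold calcium. Anxa8 is known chiefly from epithelia.

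**Figure D2:**
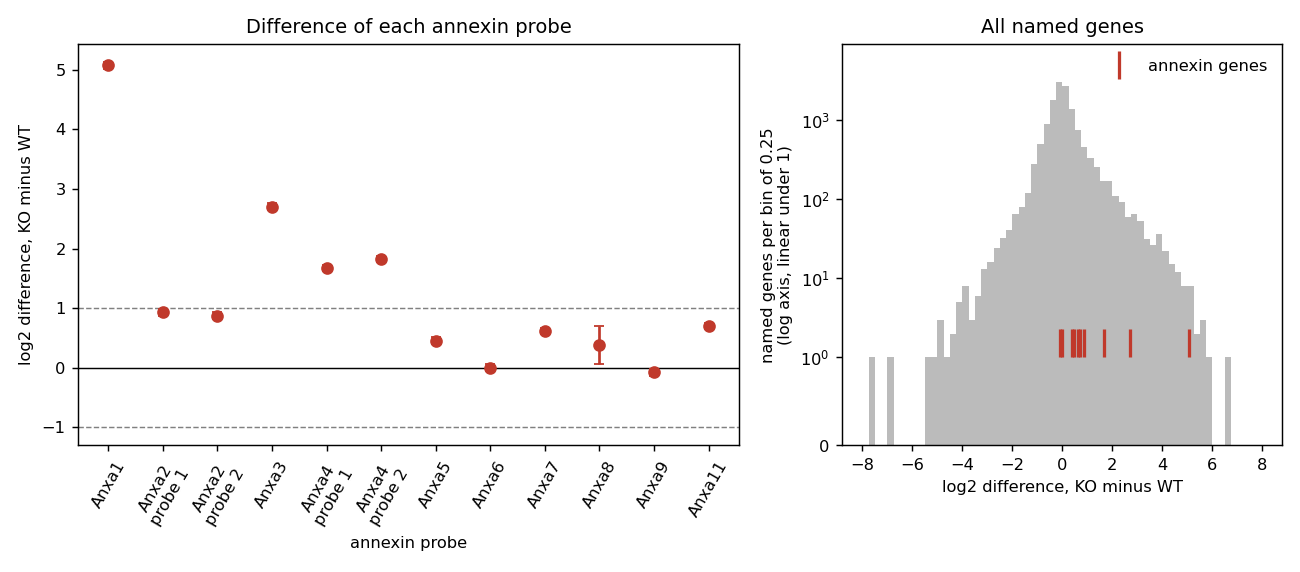
Left, log2 difference (KO minus WT) of each annexin probe, with bars of 1 spot-to-spot SD for its signal class (0.0541, or 0.314 for Anxa8) and dashed lines at the 2-fold limits. Right, the same quantity for all 13510 named genes as counts per bin of 0.25, with a red tick per annexin gene: Anxa1 at 5.07 lies in the far upper tail. On the left, bars are the SD of single spots, while the Anxa8 point is a mean over 10.

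Anxa8 was printed 10 times on each array and so shows spot scatter directly. In KO the 10 spots ran from 17.2 to 25.6 with a median of 22.9 (mean 22.6 ± 2.59, SD of spots), and all 10 were well above background. In WT they ran from 11 to 23.4 with a median of 18.1 (mean 17.6 ± 4.13), and 7 of the 10 were well above background. The spots of both arrays overlapped. The KO spot was brighter at 9 of 10 positions, and the log2 difference was 0.38 ± 0.38 (SD, 10 spots). It was -1.13 after normexp and -0.12 with those backgrounds replaced, so the side on which Anxa8 lay depended on the background correction.

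**Figure D3:**
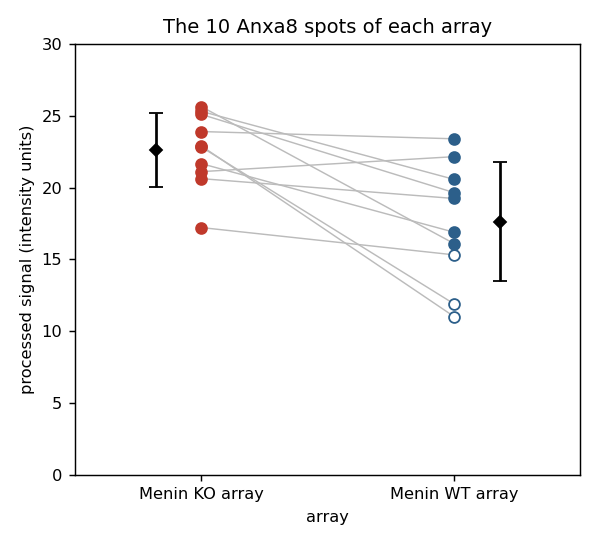
Processed signal of the 10 Anxa8 spots on the Menin KO array and the Menin WT array, joined by position. Filled points were well above background, open points were not, and diamonds with bars are the mean and SD of spots: the ranges, 17.2 to 25.6 in KO and 11 to 23.4 in WT, overlap.

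A pair of further annexin genes had probes. Anxa10 stayed below the background limit on both arrays, with signals of 2.1 in KO and 2.85 in WT. Anxa13 had 1 probe below background on both arrays. Its other probe passed background on the KO array alone (12.1 in KO, 13.9 in WT) and gave no usable fold.

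Genes of proteins that annexins bind were read next. The list held 7 genes, of which 4 were at least 2-fold higher and 3 lay within the limits, where 10.8% of all named genes were higher and 5.14% lower. Its median log2 difference was 1.30. S100a11, whose product binds the tail of annexin A1, had 6833 in KO and 2745 in WT (2.47-fold), and S100a10, the partner of annexin A2, had 95641 in KO and 48227 in WT (1.97-fold). S100a6, a partner of annexins A2 and A11, was 6.85-fold higher and S100a4, a further annexin A2 binder, 17.2-fold. Ahnak encodes a giant scaffold that attaches to annexin A2 with S100A10. All 6 of its probes were over 2-fold higher in KO, at log2 differences of 1.37 to 2.08. Pdcd6, encoding ALG-2, had a log2 difference of 0.26, and Sri, the sorcin partner of annexin A7, had -0.06.

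Receptors for secreted annexin A1 were not read above background on these arrays. Fpr1 (2.66 in KO, 3.11 in WT) and Fpr2 (4.73 in KO and 2.97 in WT on the brighter probe) were not well above background, and Fpr3 had no named probe. Of the 4 measured genes of this list, all of eicosanoid synthesis, 3 were at least 2-fold higher, against 10.8% of all named genes. Alox5, encoding 5-lipoxygenase, had 526 in KO and 63.8 in WT (8.17-fold, log2 difference 3.03). Its other 2 probes gave 3.26 and a bound of 3.19 on a probe above background in KO alone. Alox5ap, for the protein that activates 5-lipoxygenase, had 1785 in KO and 444 in WT (3.99-fold), and Ptgs1, encoding cyclooxygenase 1, had 283 in KO and 29.9 in WT (9.36-fold). Ltc4s, the leukotriene C4 synthase, was dim on both arrays (16.9 in KO, 27.7 in WT), with a log2 difference of -0.73. Pla2g4a, the cytosolic phospholipase A2 whose activity annexin A1 was first described to restrain, was not well above background, and neither was Ptgs2.

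Membrane repair is a process in which annexins seal the wound edge. Its list had 11 measured genes, 1 at least 2-fold higher, 1 lower and 9 within 2-fold (10.8% higher and 5.14% lower over all named genes), and a median log2 difference of 0.29. Ferlins are membrane fusion proteins. Dysf had 166 in KO and 20.2 in WT (8.16-fold higher), whereas Myof had 24.8 in KO and 117 in WT (4.78-fold lower). Chmp4b (log2 difference 0.05), Smpd1 (0.45), Vps4b (-0.10) and Capns1 (0.27) were among those between. None of the 3 measured genes of plasminogen activation described here was 2-fold apart, with a median of -0.35. The plasminogen receptor gene Plgrkt had 5402 in KO and 7458 in WT (1.39-fold lower), and the activator gene Plat (32.3 in KO, 28.8 in WT) and the urokinase receptor gene Plaur (38.2 in KO, 48.3 in WT) were dim.

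Other proteins that bind phospholipids with calcium were listed too. Their median log2 difference was 0.05 over 11 measured genes, with 1 at least 2-fold higher and 3 at least 2-fold lower, where the shares over all named genes were 10.8% and 5.14%. The copine gene Cpne7 was 7.37-fold higher from a dim 17.2 in WT, and its relative Cpne9 was well above background in WT only, at least 3.72-fold lower in KO. The protein kinase C genes Prkca (232 in KO, 626 in WT) and Prkcb (1472 in KO, 3185 in WT) were 2.73-fold and 2.18-fold lower, although the other Prkcb probe gave a log2 difference of -0.95. Esyt1 (0.08), Cpne1 (0.05), Cpne3 (0.35) and Cpne5 (-0.80) lay between.

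Genes that expose or recognise phosphatidylserine, the lipid that annexin A5 binds, had a median of 0.03. The list had 14 measured genes. At least 2-fold higher were 3 of them, against 10.8% of all named genes, 10 were within 2-fold, and the bound of the last (Havcr1) did not reach the limit. Gas6, a bridging ligand, had 164 in KO and 34.7 in WT (4.69-fold), and its receptor Axl 448 in KO and 199 in WT (2.23-fold). Tmem30a, the flippase subunit, was 2.34-fold higher on its brighter probe and had a log2 difference of 0.69 on the other. Mfge8 (0.38), Plscr1 (0.19), Plscr3 (-0.01) and the scramblase Ano6 (-0.32) lay between.

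Because glucocorticoids induce Anxa1, other genes of that response were read beside it. Sgk1 was 2.08-fold higher and Dusp1 3.21-fold lower, the other 6 of the 8 measured were within 2-fold, and the list's median log2 difference was 0.18. Among all named genes 10.8% were higher and 5.14% lower. Tsc22d3, encoding GILZ, had a log2 difference of -0.23 and Nr3c1, the receptor gene, -0.38. Ddit4 had 0.76 and Nfkbia -0.44. Fkbp5 had 0.61, with 0.83 and 0.42 on its other probes, and Per1 had 0.60. Of the 8 measured genes, 4 were above 0 and 4 below.

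**Figure D4:**
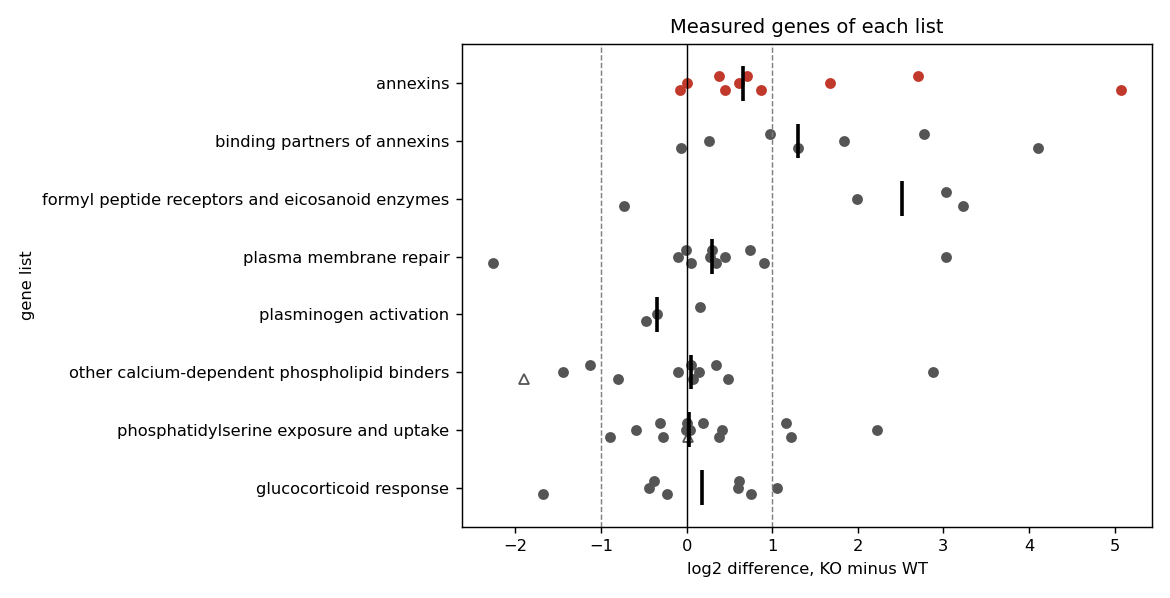
Log2 difference (KO minus WT) of each measured gene of the annexins (red) and of 7 related lists, with a black bar at each list's median, open triangles for bounds and dashed lines at the 2-fold limits. Medians run from -0.35 for plasminogen activation to 2.51 for the receptor and eicosanoid list, with the annexins at 0.66.

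Anxa1 and Anxa3 are also expressed by myeloid cells, and markers of other cell types were read for that reason, where 10.8% of all named genes were at least 2-fold higher and 5.14% lower. Neutrophil markers were nearly absent: S100a8, S100a9, Elane and Camp did not pass background on either array, and Mpo had 31.3 in KO and 43.1 in WT. Markers of macrophages and monocytes summed to a signal of 689 in KO and 369 in WT. At least 2-fold higher in KO were 3 of 7 measured (Cd14, Adgre1 and Fcgr3), and the median log2 difference was 0.00. C1qb (0.00), Csf1r (-0.39) and Mpeg1 (-0.64) were within 2-fold. Lyz2 passed background in WT only (bound -0.92), and Itgam did not pass background on either array. Natural killer markers summed to 7038 in KO and 1061 in WT, with 3 of 4 at least 2-fold higher. Fcer1g, which mast cells and basophils also express, made up 5087 of that sum in KO and 669 in WT, and Ncr1 had 21.7 in KO and did not pass background in WT. Those of mast cells and basophils summed to 623 in KO and 82.1 in WT, with 3 of 4 measured higher and Ms4a2 below background. Dendritic cell markers summed to 788 in KO and 170 in WT, with 1 of 4 higher (Itgax). Itgax made up 623 of that sum in KO and 20 in WT. Flt3 (log2 difference 0.40), Zbtb46 (0.27) and Xcr1 (-0.01) were within 2-fold. Dimmer probes above background in WT alone gave bounds of -2.95 for Zbtb46 and -1.40 for Xcr1. Epithelial markers summed to 2156 in KO and 273 in WT, with 3 of 4 higher (Epcam, Krt18 and Cdh1). Krt18 made up 1525 of that sum in KO and 136 in WT. Krt8 had 17.7 in KO and did not pass background in WT (bound 0.33). B cell markers summed to 438 in KO and 235 in WT, with 1 of 3 measured higher and Pax5 below background. Cd8a had 3213 in KO and 312 in WT. The T cell list summed to 122558 in KO and 144008 in WT, with 1 of 7 at least 2-fold lower (Cd2). The part of these cells in the annexin differences was not tested.

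**Figure D5:**
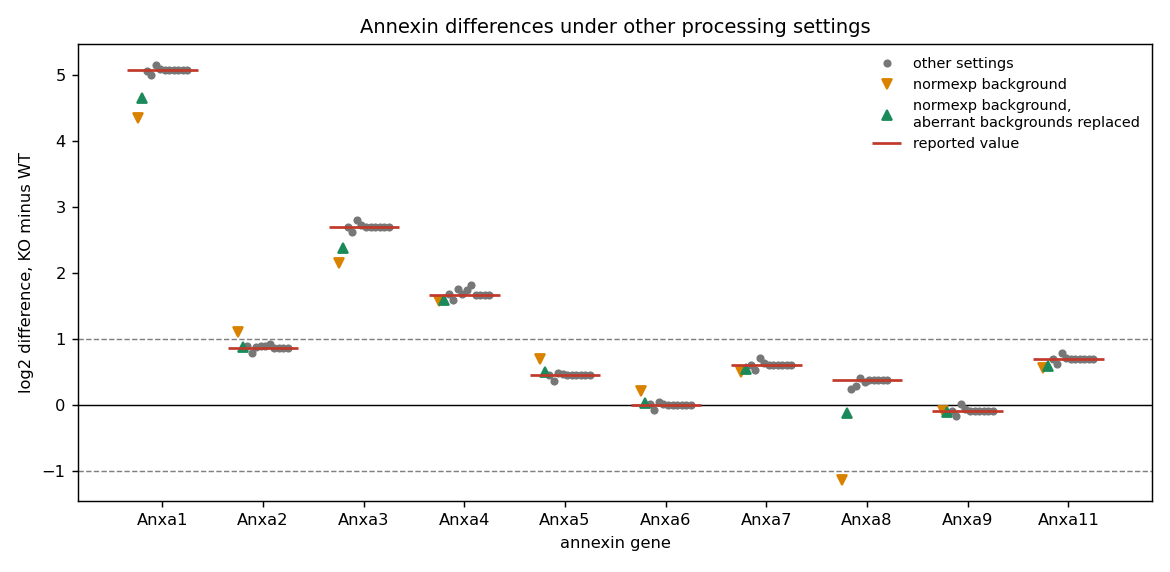
Log2 difference (KO minus WT) of each annexin gene as reported (red line) and under 12 other processing settings (points; 11 for Anxa8), with dashed lines at the 2-fold limits. Anxa1, Anxa3 and Anxa4 lie above 1 under each setting, while Anxa8 runs from -1.13 to 0.42.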

How the data were processed

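Total RNA (500 ng) of 1 Menin KO and 1 Menin WT sample was labelled with Cy3, per the labels' protocols, and hybridised to one-colour Agilent arrays of the same slide and scan. The intensity used is the processed signal the authors deposited, background-subtracted and detrended by Feature Extraction 10.7.3.1 per the file headers (10.7 in the submitters' processing notes), with no scaling between arrays. The series' value table is on the log2 scale as deposited: either column equals the log2 processed signal shifted by 1 constant (within 0.01 for 99.7% of probes), which settles scale, centring and direction. Column medians were -3.90 (KO) and -3.97 (WT).

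No spot was saturated among 45018 on an array, of which 43379 were non-control. Outlier spots were left out (103 in KO, 115 in WT), and 63.5% of non-control spots in KO and 59.5% in WT were well above background. Log2 signals were set to each array's 75th percentile (650 in KO, 644 in WT) and averaged over the spots of a probe. A probe counted as above background where at least 50% of its spots did. Names came from RefSeq genes of GRCm38.p6 by unversioned accession, for 27043 of 41164 probes, and 14121 had none. Array annotation was on mm9, per the file headers. A gene took its brightest probe on average. A gene above background on 1 array only has a bound, written as at least N-fold.

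The design was 1 array against 1, so differences were described by a 2-fold limit and none was tested. The members and gene lists were chosen with earlier results of these data known. Text names all members, Men1, Bach2, list genes at least 2-fold apart with up to 4 bright others, and the genes nearest to Anxa1. Fpr1, Fpr2, Pla2g4a, Ptgs2, Tyro3, Mertk, Fkbp5, Per1 and some marker genes of other cell types were named after their values were seen. A gene of the plasminogen list is not reported here. Alternatives covered normexp (limma 3.58.1, R 4.3.3, offset 50, on median spot signals), also with 6 WT local backgrounds over 200 replaced by the median, quantile, median and loess scaling, the authors' values, probe choice, filters, flags and size limits. The calculation was tested on simulated data. The number of arrays limits the precision.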

Additional observations from a re-analysis of the deposited data

How the results depend on the processing

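The count of annexins at least 2-fold higher in KO was 3 under each alternative that kept the 2-fold limit, apart from 4 after normexp. With other limits, 6 were at least 1.5-fold and 2 at least 4-fold higher. None was lower past the limit used under 13 of 14 alternatives. After normexp, 1 was (Anxa8, -1.13), where 4.72% of all named genes were higher and 13.2% lower, against 5.75% and 2.79% with the 6 aberrant backgrounds replaced and 10.8% and 5.14% as reported. The annexin median ran from 0.57 to 0.75 over 12 alternatives. Over the same settings Anxa1 ran from 4.35 to 5.16, Anxa3 from 2.16 to 2.80 and Anxa4 from 1.58 to 1.83. Anxa2, Anxa5, Anxa7 and Anxa11 stayed above 0. Anxa6 was below 0 under median centring alone and Anxa9 above 0 after loess alone. The cause of these shifts was not tested. Signal over background limits Anxa8, Anxa10 and Anxa13. No paired analysis was possible because each group has 1 array and the labels carry no replicate numbers.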

Other observations

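The genes that flank the annexins in the RefSeq gene order were read as well. Of 20 nearest neighbours with a value, 1 on each side of each annexin gene, 15 were within 2-fold, 2 were higher in KO and 3 lower, and the median log2 difference was -0.13. Over all named genes the shares were 10.8% higher and 5.14% lower, and nothing particular to the neighbours is read from these counts. This comparison was added after the values were seen. Beside Anxa1, the gene for retinal dehydrogenase Aldh1a1 had 36.5 in KO and 41.6 in WT (log2 difference -0.20). Beside Anxa3 lay Mrpl1, encoding a mitochondrial ribosomal protein (0.12), and Bmp2k (-0.52), and beside Anxa4 lay Gmcl1 (-0.03). Around Anxa7, itself 1.53-fold higher, both neighbours were lower in KO: Mss51 had 301 in KO and 671 in WT, and Cfap70, at 2.25 in KO and 112 in WT, was well above background in WT only. Next to Anxa9, which was nearly level, Mindy1 had 4191 in KO and 1682 in WT, and next to Anxa11 Zcchc24 had 202 in KO and 75.3 in WT.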
